A study of Solanum lycopersicum and Solanum pennellii with 32 samples.

Results

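In roots of the cultivated tomato Solanum lycopersicum cv M82, 89 of 34843 genes were higher on limiting than on sufficient phosphate at both the tip and the midsection, by a rule applied to the deposited counts. A gene was taken when all 4 limiting libraries lay above all 4 sufficient libraries at each position, when the ratio of group means (CPM + 1) was 2 or more at each position, and when its largest group mean was 5 CPM or more. CPM is the count divided by the library's total on a parts-per-million scale. These M82 values chose the genes, so the phosphate contrast in M82 is described below with no test. The wild relative Solanum pennellii LA0716 (Pennellii below) was not used in the choice and was tested. The contrast between root positions was tested too, in the same M82 libraries that chose the genes.

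All seedlings carried a 35S:TRAP construct, in which the broadly active 35S promoter of a plant virus drives expression of a ribosomal protein with a tag. Per the labels, however, RNA was isolated as total RNA. In each genotype the groups were tips on limiting phosphate, tips on sufficient phosphate, midsections on limiting phosphate and midsections on sufficient phosphate. Seedlings were 8 to 10 days past germination and were grown at 25 °C with 12 h of light. Tips were the last 1 cm of root, and midsections were 2 cm taken midway along it, so the segments differed in length. Each of the 4 biological replicates of a group pooled 30 to 40 plants. The medium was made with phosphate or with none added. Libraries read the 3′ ends of transcripts, so CPM was not divided by transcript length and levels are compared within a gene across libraries. The IDs could not be paired with gene names (0 of 34843 matched the reference table used), so genes are given by ID, and neither their roles nor the labelled root tissues could be checked against named markers.

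Roots take up phosphate as the free ion, which is often scarce in soil. When it runs short, plants are known to raise high-affinity phosphate transporters, secreted acid phosphatases, enzymes that replace membrane phospholipids with galactolipids and sulfolipids, and small SPX proteins that sense inositol pyrophosphates and restrain the transcription factors of the response. The root tip holds the dividing and elongating cells and is known as a site of local phosphate sensing, and older root carries differentiated tissue and much of the uptake surface. None of the IDs below is assigned to any of these roles.

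M82 libraries held 1084652 to 34103546 counts. The shallowest were a sufficient midsection library (replicate 3, 1084652 counts) and a sufficient tip library (replicate 4, 1406650 counts), in which 70 and 61 of the 89 genes had any count. In Pennellii, 11 libraries of at least 100000 counts were used (137511 to 13124725 counts), which left 3 limiting and 2 sufficient tips and 3 limiting and 3 sufficient midsections. Not used were 3 libraries of 38629, 46018 and 6225 counts and a limiting tip and a sufficient midsection library whose columns were identical, at 50571 counts each. The Pennellii counts were deposited as mapped to M82, so reads with mismatches to M82 may be missing, and no level was set against the other genotype. In bulk roots, more cells that express a gene and more RNA per cell cannot be told apart.

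The rule was met in M82 tips by 541 of the 16382 genes with a group mean of 5 CPM or more (3.3%) and in midsections by 763 (4.66%). Both positions together gave the 89 genes (0.543%), which left 452 genes that met it in tips alone and 674 in midsections alone. The mirrored rule, lower on limiting phosphate at both positions, was met by 5 genes.

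The member nearest the ratio threshold was Solyc03g006730.2.1, with a tip ratio of 2.01 (31.2, 37.5, 25.8 and 25.8 CPM in limiting tips, against 15, 20, 18.7 and 4.27 in sufficient tips) and a midsection ratio of 2.95. Just outside was Solyc09g005500.3.1, with ratios of 2.31 in tips and 1.996 in midsections. At the 5 CPM threshold, Solyc07g041735.1.1 was inside with a largest group mean of 6.80 CPM, and Solyc00g178340.2.1 was outside at 4.73 CPM. For 33 of the 89 genes, the lowest limiting library was less than 1.2 times the highest sufficient one at one or both positions. For 21 genes it was 2 times or more at both.

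The 89 genes ranged from weakly to strongly expressed. Their largest group mean had a median of 77.5 CPM, with 7 genes under 10 CPM, 44 from 10 to under 100, 35 in the next 10-fold range, and 3 higher still, up to 1418 CPM. The highest of the 4 group means was that of limiting midsections for 56 genes and of limiting tips for 33. In tips the ratio of limiting to sufficient means ran from 2.01 to 25.9 with a median of 4.30, and in midsections from 2.01 to 65.7 with a median of 3.41. On the log2 scale the medians were 2.10 in tips and 1.77 in midsections, against 0.08 and 0.046 over the 16382 genes. Adding 1 CPM makes these ratios smaller for weakly expressed genes. A ratio of 4 or more was reached by 46 genes in tips, 39 in midsections and 28 at both. A ratio of 10 or more was reached by 14, 13 and 4 genes.

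Genes with a large ratio at one position did not all have a large ratio at the other. Across the 89 genes, log2 ratios in tips and midsections had a Spearman rho of 0.379 and a Pearson r of 0.355, a description over genes that share the same libraries and were chosen on both ratios. The ratios were within 2 times of each other for 56 genes, while 21 had a tip ratio more than 2 times their midsection ratio and 12 the reverse.

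**Figure D1:**
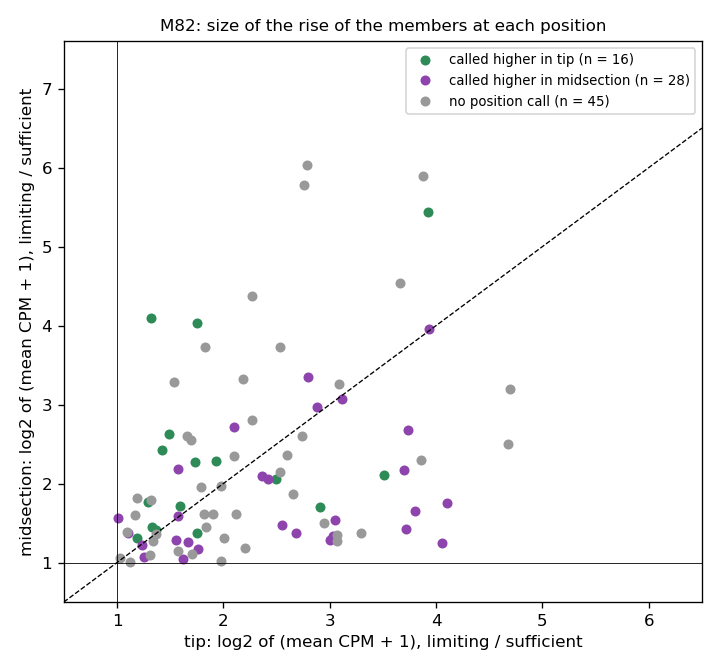
Each point is 1 of the 89 genes in M82, with the log2 ratio of (mean CPM + 1), limiting over sufficient, in tips on the horizontal axis and in midsections on the vertical axis. Solid lines mark the ratio of 2 that the rule asks for, the dashed line marks equal ratios, and colours give the call of the tip over midsection test (16 higher in tip, 28 higher in midsection, 45 not called).

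4 genes had a ratio above 10 at both positions, and they differed in level and in where they were highest. Solyc04g015120.3.1 had 48.3, 24.0, 55.6 and 57.7 CPM in limiting tips, against 6.28, 0.792, 0.644 and 0.711 in sufficient tips, a ratio of 15.3. In midsections it had 187, 105, 165 and 123 CPM on limiting phosphate, against 8.87, 6.16, 16.6 and 1.76 on sufficient phosphate, a ratio of 15.6. Its limiting midsections were thus the highest group, above every limiting tip.

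Solyc05g011970.3.1 stood at nearly the same level in all limiting roots. It had 309, 374, 389 and 375 CPM in limiting tips, against 50.3, 21.3, 14.8 and 4.98 in sufficient tips (ratio 15.2). Limiting midsections held 328, 394, 358 and 352 CPM, against 9.82, 1.98, 8.30 and 9.18 in sufficient midsections (ratio 43.2). The 8 limiting libraries lay within 309 to 394 CPM, and the sufficient tips ran between 4.98 and 50.3 CPM.

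The other two, Solyc01g090890.3.1 and Solyc10g085850.1.1, were near the counting floor on sufficient phosphate. Solyc01g090890.3.1 had 5.20, 25.2, 33.9 and 39.1 CPM in limiting tips, against 1.35, 0.586, 0.644 and 0.711 in sufficient tips (ratio 14.7), and 98.6, 78.3, 144 and 100.1 CPM in limiting midsections, against 1.06, 0.55, 0.922 and 0.588 in sufficient midsections (ratio 59.6). Solyc10g085850.1.1 had 4.37, 3.28, 16.1 and 45.1 CPM in limiting tips, against 0.673, 0.381, 0 and 0.711 in sufficient tips (ratio 12.6). Its midsections had 51.3, 23.7, 70.3 and 30.1 CPM on limiting phosphate, against 0.118, 1.54, 1.84 and 0.235 on sufficient phosphate (ratio 23.2). Every limiting tip lay below every limiting midsection for Solyc01g090890.3.1 and not for Solyc10g085850.1.1. The limiting tips of both varied widely, with replicates 1 and 2 below replicates 3 and 4.

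Of the next genes in order of their smaller ratio, Solyc03g120260.3.1 came closest to an off state. It had 19.6, 12.1, 28.9 and 44.9 CPM in limiting tips, against 0.224, 0, 0 and 0 in sufficient tips, and 7.94, 13.4, 10.2 and 4.27 CPM in limiting midsections, against 0, 0.33, 0 and 0 in sufficient midsections. Only 1 count lay behind the sufficient tips and 3 behind the sufficient midsections. Summed counts divided by summed depth gave a ratio of 1250 in tips (95% exact interval 224 to 49460) and 83.7 in midsections (28.4 to 408). The tip value leaned on the deepest library, since it was 223 without sufficient tip replicate 2 (34103546 counts), and without sufficient tip replicate 1, which held the count, it was at least 372-fold. Without sufficient midsection replicate 2, which held the 3 counts, the midsection value was at least 55.7-fold.

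Solyc04g063370.2.1 was likewise near 0 on sufficient phosphate, with 20.4, 1.23, 4.26 and 6.68 CPM in limiting tips against 0.224, 0.088, 0 and 0 in sufficient tips. Limiting midsections had 1.76, 3.48, 7.45 and 26.0 CPM, against 0.118, 0.22, 0 and 0.118 in sufficient midsections. At both positions 1 limiting library held most of the signal. Solyc01g100020.3.1 and Solyc02g091590.3.1 were steadier. Solyc01g100020.3.1 had 68.1, 72.0, 88.5 and 81.4 CPM in limiting midsections against 0.591, 9.57, 8.30 and 15.1 in sufficient ones, with ratios of 8.68 in tips and 8.37 in midsections. Solyc02g091590.3.1 had 32.9, 29.1, 44.7 and 56.6 CPM in limiting tips against 2.02, 7.98, 5.15 and 3.55 in sufficient tips, with ratios of 7.37 in tips and 7.81 in midsections.

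**Figure D2:**
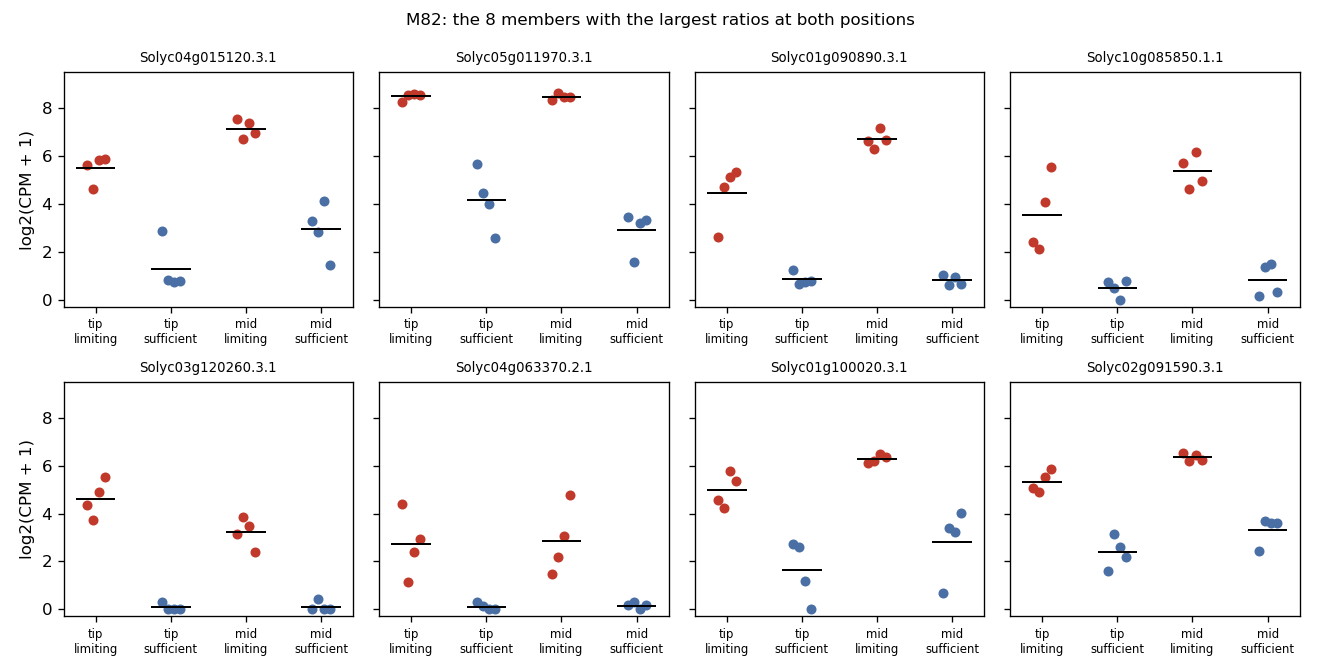
Points are single M82 libraries, as log2(CPM + 1), for the 8 genes with the largest smaller-of-both ratios, in the order tip limiting, tip sufficient, midsection (mid) limiting and midsection sufficient. Red is limiting and blue is sufficient phosphate, and lines are means of the log2 values, which for Solyc05g011970.3.1 stand at the same height in limiting tips and midsections.

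The largest ratios at a single position belonged in part to genes with almost no sufficient counts. The midsection ratio of 65.7 was that of Solyc06g062540.3.1, named for that value after it was seen. It had 51.5, 40.9, 90.7 and 99.1 CPM in limiting midsections against 0.237, 0, 0 and 0.118 in sufficient midsections, 3 counts in all. Over summed depth the ratio was 626 (95% exact interval 214 to 3036), or 1292 without sufficient midsection replicate 1 and 416 without replicate 2. In 56.2% of the M82 libraries its value was fractional, so its level is uncertain. It averaged 16.7 ± 11.6 CPM in limiting tips against 1.56 ± 1.73 in sufficient tips (SD, n = 4 each). A pair of genes had no count in a whole sufficient group, and they too were named after their values were seen. Solyc05g007950.3.1 had 1.04, 0.615, 27.5 and 6.16 CPM in limiting tips and 0.353, 0.402, 2.83 and 2.79 CPM in limiting midsections, and no count in any of the 8 sufficient libraries. Set against 3 counts summed over the sufficient group, it was at least 108-fold higher in limiting tips and at least 13.9-fold higher in limiting midsections. The tip bound was 48.5 without limiting tip replicate 3 and 19.2 without sufficient tip replicate 2, and the midsection bound was 8.23 when limiting midsection replicate 3 was left out and 9.22 when sufficient midsection replicate 2 was. Solyc08g066720.2.1 had 2.03, 2.95, 1.80 and 0.557 CPM in limiting midsections and no count in sufficient midsections, where it was at least 17.4-fold higher, or at least 11.6-fold without sufficient midsection replicate 2. In tips it had 7.70, 5.13, 9.71 and 4.72 CPM on limiting phosphate, against 0, 0.0586, 0 and 0 on sufficient phosphate (2 counts, ratio over summed depth 131, 95% exact interval 35.6 to 1090, and at least 15.6-fold without sufficient tip replicate 2).

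The most abundant of the 89 genes all had their highest level in limiting midsections. Solyc03g093140.3.1 had 489, 623, 964 and 1088 CPM in limiting tips, against 156, 171, 144 and 73.2 in sufficient tips, and 1418 ± 254 CPM in limiting midsections, against 106 ± 50.8 in sufficient midsections (SD, n = 4 each). Solyc02g083250.3.1 averaged 424 ± 78.2 CPM in limiting tips, against 97.7 ± 15.1 in sufficient tips, and 1374, 1300, 1364 and 1325 CPM in limiting midsections, against 309, 149, 211 and 141 in sufficient midsections. The 4 limiting midsections of this gene differed by little (SD 34.1).

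Solyc02g094400.3.1 differed more in midsections than in tips. It averaged 1272 ± 215 CPM in limiting midsections, against 130 ± 43.8 in sufficient midsections (ratio 9.74), and 621 ± 153 CPM in limiting tips, against 213 ± 96.9 in sufficient tips (ratio 2.90). Its estimated counts were fractional in 43.8% of M82 libraries, so its level is uncertain where reads may be shared with another gene model. Solyc08g060920.3.1 averaged 295 ± 54.6 CPM in limiting tips, against 41.5 ± 16.6 in sufficient tips, and 951 ± 96.3 CPM in limiting midsections, against 92.7 ± 34.4 in sufficient midsections. Together these 4 genes held 34.5% to 37.7% of the summed CPM of the 89 in limiting midsections and 12.8% to 22.6% in sufficient midsections. In tips they held 22.2% to 27.2% of it on limiting phosphate and 18.4% to 31.9% on sufficient phosphate.

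Summed over the 89 genes, limiting midsections held the most. The sums were 7469, 7080, 10243 and 9718 CPM in limiting tips, against 2297, 2281, 2109 and 1703 in sufficient tips, and 12837, 13230, 14817 and 14280 CPM in limiting midsections, against 3593, 2940, 2701 and 2412 in sufficient midsections. The ratio of mean sums was 4.11 in tips and 4.74 in midsections. Limiting tips split into a lower pair (replicates 1 and 2) and a higher pair (replicates 3 and 4). Replicates 1 and 2 were the lowest limiting tip for 33 and 37 of the genes, replicate 3 for 3 and replicate 4 for 16. The median coefficient of variation over the genes was 33.3% among limiting tips, against 66.8% among sufficient tips, and 25.2% among limiting midsections, against 61.7% among sufficient midsections. The rule chose low sufficient values, and the shallowest M82 libraries were sufficient ones, so counting error is not equal between these groups. No coefficient over all genes was computed, and the difference in spread was not tested.

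**Figure D3:**
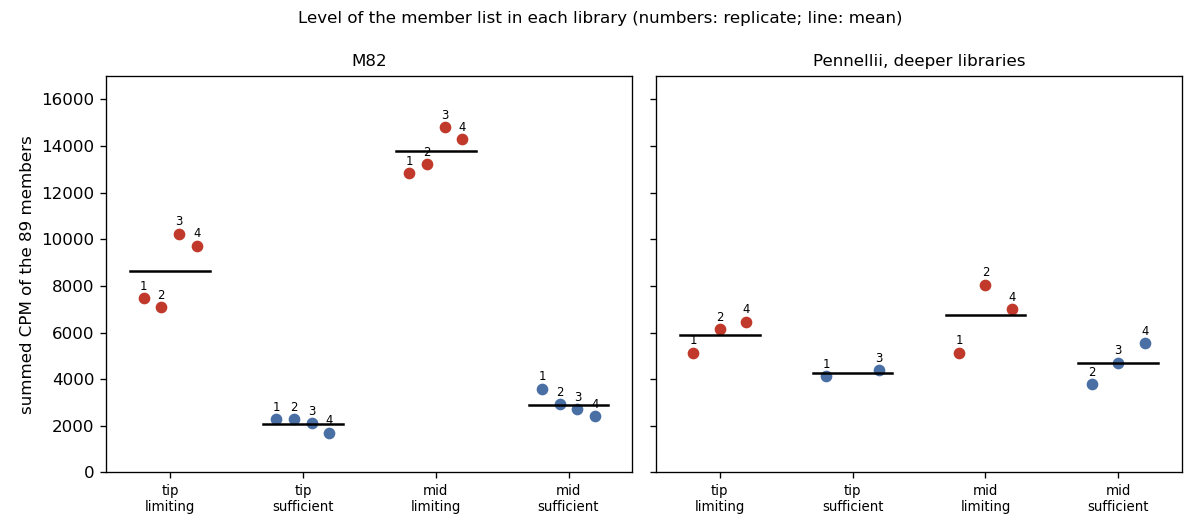
Each point is the summed CPM of the 89 genes in 1 library, numbered by replicate, with the mean of the group as a line, for M82 on the left and the deeper Pennellii libraries on the right (red limiting, blue sufficient, mid for midsection). In M82 limiting tips hold 7080 to 10243 CPM and sufficient tips 1703 to 2297, and in Pennellii limiting tips hold 5129 to 6459 CPM and sufficient tips 4126 and 4397.

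The genes were also asked for a difference between root positions, a contrast averaged over phosphate and balanced across it, with all 16 M82 libraries. All 89 genes were among the 18275 tested. Tip over midsection, edgeR's quasi-likelihood test with Benjamini-Hochberg adjustment (threshold 0.05) called 16 of the 89 higher in tips (18.0%), against a background of 16.2% of all genes tested. It called 28 lower in tips and so higher in midsections (31.5%), against a background of 15.4%. Among tested genes that met the floor of 5 CPM, the backgrounds were 17.6% and 16.5%. The median log2 change was -0.30 over the 89 genes and -0.03 over all genes tested, and 35 of the 89 were positive. With a library left out, the median of the 89 lay between -0.55 (without sufficient tip replicate 2) and -0.26 (without limiting tip replicate 2), and it was -0.47 without limiting tip replicate 1. The share called higher in tips was near the background, and the share called higher in midsections was above it. Of the genes that met the rule in tips but not midsections, 53.7% were called lower in tips and 4.21% higher. Of those that met it in midsections but not tips, 36.0% were called higher in tips and 6.25% lower. Position shares thus differed with where the rule was met, so the shares of the 89 are not independent of the choice.

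The largest changes toward the tip belonged to genes nearly silent in midsections. Solyc10g076660.2.1 had 25.0, 27.5, 63.9 and 34.9 CPM in limiting tips and 1.79, 9.65, 12.2 and 18.5 in sufficient tips, against 0.441, 3.08, 1.63 and 1.86 in limiting midsections and 0.118, 0, 0 and 0.118 in sufficient midsections. Every limiting tip lay above every midsection, and its log2 change over midsections was 5.66 ± 0.71 (SE, edgeR adjusted p = 1.54e-07). Solyc05g046340.2.1 had 40.4, 40.4, 56.4 and 59.6 CPM in limiting tips and 3.14, 13.0, 5.79 and 0.711 in sufficient tips, against 0.882, 0.67, 5.37 and 3.24 in limiting midsections and 0.237, 0, 0 and 0.118 in sufficient midsections. Its log2 change was 4.93 ± 0.69 (edgeR adjusted p = 9.26e-07), although its sufficient tips and limiting midsections overlapped. Solyc05g054320.3.1 was weaker, with 6.66, 16.8, 10.7 and 8.93 CPM in limiting tips and 6.06, 4.16, 4.50 and 0 in sufficient tips, against 3.44, 2.55, 0.428 and 1.49 in limiting midsections and 0.118, 0.11, 0 and 0.118 in sufficient midsections (log2 change 3.68 ± 0.92, edgeR adjusted p = 0.00238).

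At the other end, Solyc07g009230.3.1 was a midsection gene under both phosphate supplies. It had 7.91, 6.36, 5.68 and 7.09 CPM in limiting tips and 1.57, 0.733, 1.29 and 2.84 in sufficient tips, against 221, 126, 201 and 229 in limiting midsections and 47.7, 34.7, 44.3 and 41.3 in sufficient midsections. Every midsection lay above every tip, by a log2 change of -4.94 ± 0.29 for tip over midsection (edgeR adjusted p = 2.84e-14). Solyc04g071610.3.1 had 49.1, 104.8, 73.9 and 57.7 CPM in limiting tips and 46.7, 26.0, 13.5 and 8.53 in sufficient tips, against 768, 692, 719 and 775 in limiting midsections and 387, 363, 171 and 288 in sufficient midsections (log2 change -3.50 ± 0.26, edgeR adjusted p = 1.04e-10). Here too no tip reached the lowest midsection.

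Solyc10g011920.2.1 had 21.8, 12.5, 31.7 and 28.1 CPM in limiting tips, against 36.1, 94.2, 66.3 and 52.9 in limiting midsections. In sufficient tips it had 1.67 CPM in replicate 1 and at most 0.0293 in the others, against 27.5, 15.9, 0.922 and 27 in sufficient midsections (log2 change for tip over midsection -3.49 ± 0.59, edgeR adjusted p = 3.14e-05). Without sufficient tip replicate 1 the change was -5.09, still called. In 81.2% of the M82 libraries its value was fractional, which leaves its level uncertain.

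**Figure D4:**
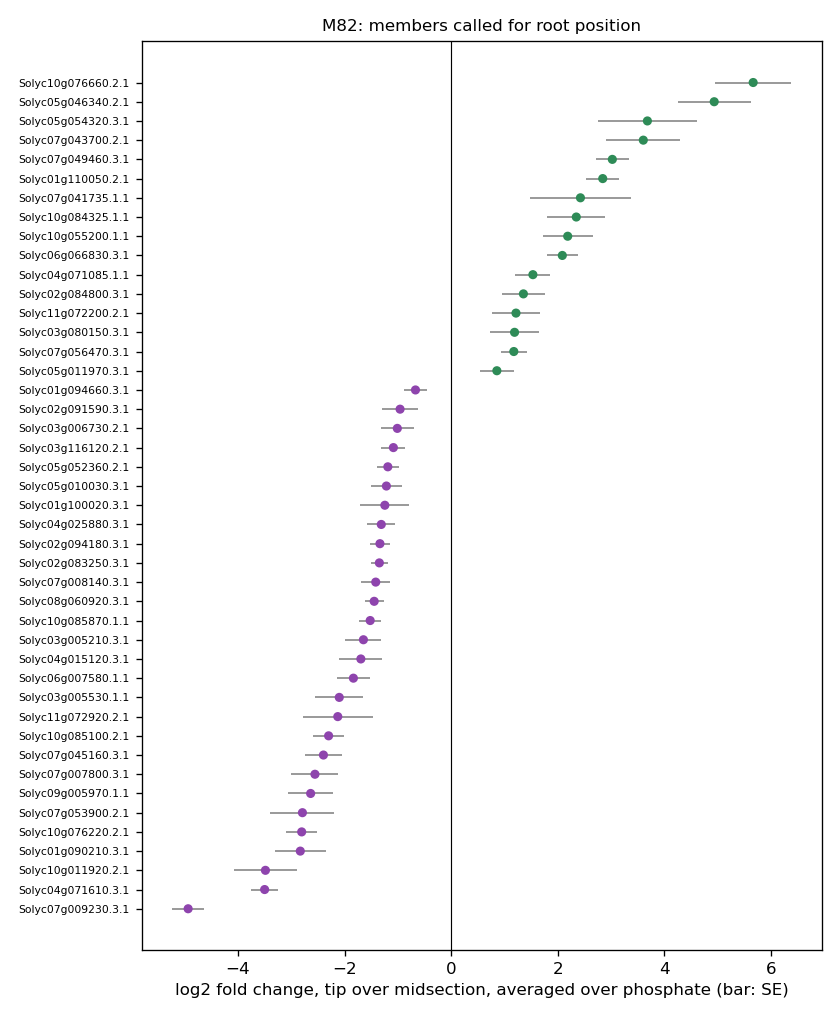
Log2 fold change, tip over midsection averaged over phosphate, with its standard error, for the 44 of 89 genes that edgeR called in M82, sorted from the largest. The 16 genes in green were higher in tips, up to 5.66, and the 28 in purple were higher in midsections, down to -4.94.

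The phosphate ratios of the genes called and not called for position are given as a description, since the rule used those ratios. The same values also enter the position call. Low sufficient tips push toward a midsection call and a larger tip ratio, and low sufficient midsections push toward a tip call and a larger midsection ratio. The medians below are thus not independent of the calls. Among the 28 genes called higher in midsections, the median ratio of limiting to sufficient was 6.14 in tips and 2.92 in midsections, and 20 had the larger ratio in tips. Among the 16 called higher in tips, the medians were 3.17 in tips and 4.24 in midsections, and 12 had the larger ratio in midsections. The 45 genes with no position call had medians of 4.30 and 3.67. For 80 of the 89 genes, the mean of limiting tips exceeded that of sufficient midsections, and no share over all genes was computed for this. The 9 exceptions were all among the 28 called higher in midsections. Under the rule, such an exception has both tip means below both midsection means, so a midsection call nearly follows from it.

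The digits after Solyc in an ID are its chromosome field. Field 7 held 15 of the 89 (16.9%), against 7.24% of all IDs in the table, and fields 6, 11 and 12 held 3, 2 and 4. In the order of the table, 11 pairs of members that follow one another lay within 10 rows, involving 20 genes, which are named here for their place after the members were known. The number of such pairs in other gene lists was not computed, so whether these members lie closer than others is not known. Field 7, the largest share, also held some of these pairs, so its share and the pairs are not independent. The closest set was Solyc07g056470.3.1, Solyc07g056480.3.1 and Solyc07g056500.3.1, at 1 and 2 rows apart. In limiting tips they averaged 160 ± 31.1, 381 ± 32.9 and 63.0 ± 22.0 CPM, against 59.0 ± 31.7, 169 ± 35.4 and 9.59 ± 4.95 in sufficient tips (SD, n = 4 each). In limiting midsections they averaged 103 ± 21.9, 397 ± 40.8 and 57.1 ± 24.5 CPM, against 18.4 ± 7.09, 130 ± 57.7 and 10.3 ± 5.18 in sufficient midsections. The first 2 had fractional counts in 31.2% and 75% of M82 libraries, so how their reads were divided is uncertain, and the last had none.

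Other adjoining rows held Solyc08g079970.1.1 with Solyc08g079980.1.1, Solyc09g090970.3.1 with Solyc09g091000.3.1, and Solyc10g085850.1.1 with Solyc10g085870.1.1. This last pair differed in level, since Solyc10g085870.1.1 averaged 101 ± 21.7 CPM in limiting tips against 32.1 ± 7.66 in sufficient tips, and 237 ± 36.7 CPM in limiting midsections against 114 ± 46.7 in sufficient midsections (SD, n = 4 each). Its neighbour Solyc10g085850.1.1, given above, was below 2 CPM in all sufficient libraries. Of the 89 genes, 26 had a fractional value in at least 1 M82 library (29.2%), against 28.5% of genes with a group mean of 5 CPM or more.

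In the deeper Pennellii libraries the summed CPM of the 89 genes was also larger in limiting than in sufficient tips, by a smaller ratio than in M82. It was 5129, 6133 and 6459 in limiting tips, against 4126 and 4397 in sufficient tips, and 5137, 8049 and 7004 in limiting midsections, against 3779, 4713 and 5546 in sufficient midsections. In these sums limiting and sufficient tips did not overlap among the libraries used, and midsections did. Sufficient tip replicate 4, not used for its depth, had a sum of 5185, above limiting tip replicate 1. The median CPM over the 89 genes overlapped at both positions. It was 22.5, 19.6 and 2.69 in limiting tips, against 3.35 and 10.6 in sufficient tips. In midsections it was 10.5, 0 and 16.4 on limiting phosphate, against 4.30, 18.3 and 16.7 on sufficient phosphate. Limiting midsection replicate 2, which had the highest sum, had any count for 38 of the 89. The ratios of mean sums were 1.39 in tips and 1.44 in midsections, against 4.11 and 4.74 in M82. The difference from M82 was not tested, since the M82 values chose the genes. In Pennellii, 13 of the 89 genes were under 5 CPM in every group mean, 5 of them under 1 CPM, and 75 passed the low-count filter among 15485 genes tested.

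Gene by gene, edgeR called none of the 75 tested members in Pennellii tips, where the background was 0.0646% of genes higher and 0.0129% lower on limiting phosphate, and none in midsections, where it was 0.0194% and 0.0129%. At an unadjusted p under 0.05 it found 8 members higher in tips (10.7%, against 7.01% of all genes) and 2 lower (2.67%, against 3.25%). In midsections it found 6 higher (8%, against 2.31%) and 1 lower (1.33%, against 1.21%). DESeq2 called 2 members higher in tips, where it called 211 of 13066 genes with an adjusted p higher (1.61%). limma-voom called 4 members higher in midsections, where it called 32 of 15485 genes higher (0.207%). Without limiting midsection replicate 2, the shallowest library, edgeR called 1 higher in tips, against 0.0959% of genes. The median log2 change of the tested members was 0.79 in tips, against 0.35 over all genes tested, and 0.19 in midsections, against -0.15 over all genes. The tip median was 0.38 without limiting tip replicate 4, when that of all genes was 0.17, and 1.67 without sufficient tip replicate 3, when that of all genes was 1.70. The midsection median turned to -0.04 without limiting midsection replicate 1, when that of all genes was -0.39, and to -0.03 with limma-voom, when that of all genes was -0.21.

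Averaged over positions, 1 member was called higher on limiting phosphate and none lower, against backgrounds of 0.136% and 0.0646% of all genes. The median log2 change was 0.47 over the members and 0.17 over all genes, and 49 of the 75 were positive. With a library left out it ran from 0.22 (without limiting midsection replicate 1, all genes 0.013) to 1.18 (without sufficient tip replicate 3, all genes 0.83). The called gene was Solyc04g071610.3.1, described above as a midsection gene in M82. In Pennellii it had 353, 483 and 311 CPM in limiting tips, against 91.7 and 37.8 in sufficient tips, and 340, 1353 and 985 CPM in limiting midsections, against 286, 396 and 557 in sufficient midsections. Its tips did not overlap and its midsections did. The log2 change was 1.97 ± 0.48 (SE, edgeR adjusted p = 0.0293). Its level was also lower in tips than in midsections, by a log2 change of -1.84 ± 0.48 (edgeR adjusted p = 0.0458), the only member called for position in Pennellii, against backgrounds of 0.174% of genes higher and 0.168% lower.

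Both calls of Solyc04g071610.3.1 in Pennellii were fragile. For phosphate, edgeR adjusted p was above 0.05 without any one of limiting tip replicate 2, sufficient tip replicate 1 or 3, limiting midsection replicate 4 or sufficient midsection replicate 2, 3 or 4, with log2 changes between 1.72 and 2.32. For position the same libraries and limiting tip replicate 1 ended the call, with log2 changes between -2.20 and -1.60. With the 3 shallow libraries added, the log2 changes were 0.33 for phosphate and -0.20 for position. With the replicate number as a block they were 1.66 and -1.65, neither called (edgeR adjusted p = 1.00 and 0.447). Over all 19 alternatives the adjusted p ran between 0.0103 and 1.00 for phosphate and between 0.0103 and 0.961 for position, and 12 alternatives ended each call.

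Several of the genes with the largest ratios or levels in M82 had larger values in limiting than in sufficient Pennellii libraries, without passing the test. Others with the largest ratios had log2 changes, averaged over positions, smaller than their SE, which showed neither a rise nor its absence. The change was 1.504 ± 1.707 for Solyc04g015120.3.1 and 1.482 ± 2.131 for Solyc04g063370.2.1. It was 1.542 ± 1.694 for Solyc01g100020.3.1 and 0.146 ± 1.60 for Solyc02g091590.3.1 (edgeR adjusted p of 0.9077 or more for all). Solyc01g090890.3.1 had 16.1, 9.81 and 88.2 CPM in limiting tips, against 0 and 0 in sufficient tips, and 7.53, 58.2 and 109 CPM in limiting midsections, against 4.30, 6.02 and 5.86 in sufficient midsections (edgeR adjusted p = 0.125, averaged over positions). Its groups did not overlap at either position, but in midsections the gap was narrow (7.53 against 6.02 CPM) and rested on few counts. There 3 counts are 4.515 CPM in limiting replicate 1, 21.82 in limiting replicate 2 and 6.455 in sufficient replicate 2. The sufficient tips without a count held 894656 and 1323408 counts in all. Solyc02g094400.3.1 had 143, 358 and 143 CPM in limiting tips, against 38.0 and 102 in sufficient tips, and 132, 240 and 651 CPM in limiting midsections, against 28.0, 72.2 and 115 in sufficient midsections (log2 change 2.04 ± 0.68, edgeR adjusted p = 0.240). This gene too showed no overlap at either position.

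Solyc03g093140.3.1, the most abundant in M82, had 341, 413 and 1055 CPM in limiting tips, against 406 and 227 in sufficient tips, and 423, 778 and 973 CPM in limiting midsections, against 256, 356 and 387 in sufficient midsections (log2 change 1.30 ± 0.44, edgeR adjusted p = 0.257). It overlapped in tips and not in midsections. Solyc10g085850.1.1 rested on 3 libraries, with 1.2, 0 and 94.7 CPM in limiting tips, against 0 and 0.756 in sufficient tips, and 0, 189 and 72.0 CPM in limiting midsections, against 0, 3.35 and 9.72 in sufficient midsections. Its groups overlapped at both positions (log2 change 5.48 ± 1.66, edgeR adjusted p = 0.157).

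Solyc08g060920.3.1 and Solyc02g083250.3.1 were separated in tips alone. Solyc08g060920.3.1 had 64.0, 222 and 173 CPM in limiting tips, against 13.4 and 43.1 in sufficient tips, and 75.3, 58.2 and 469 CPM in limiting midsections, against 28.0, 68.9 and 94.4 in sufficient midsections (log2 change 2.23 ± 0.83, edgeR adjusted p = 0.329). Solyc02g083250.3.1 had 162, 200.1 and 109 CPM in limiting tips, against 93.9 and 88.4 in sufficient tips, and 206, 327 and 451 CPM in limiting midsections, against 43.0, 151 and 215 in sufficient midsections (log2 change averaged over positions 1.16 ± 0.66, edgeR adjusted p = 0.639).

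Solyc05g011970.3.1 did not separate the phosphate supplies in Pennellii. It had 11.8, 2.62 and 3.23 CPM in limiting tips, against 7.82 and 3.02 in sufficient tips, and 15.1, 14.5 and 21.4 CPM in limiting midsections, against 10.8, 19.7 and 20.4 in sufficient midsections. Groups overlapped at both positions, and the log2 change averaged over positions was 0.23 ± 1.52 (edgeR adjusted p = 1.00). Several of these values rest on few counts. In limiting tip replicate 2, 3 counts are 1.96 CPM, in sufficient tip replicate 3 they are 2.27, and in limiting midsection replicate 2 they are 21.8. With this SE, neither a rise nor its absence was shown. Whether Pennellii reads of this gene were lost in mapping was not tested. Solyc03g120260.3.1, nearly silent in M82 on sufficient phosphate, had at most 0.602 CPM in any limiting Pennellii library and at most 2.15 in any sufficient one. These values are near the counting floor and do not rank the supplies. In limiting tip replicate 1, 3 counts are 0.602 CPM, and in sufficient midsection replicate 2 they are 6.455 CPM.

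**Figure D5:**
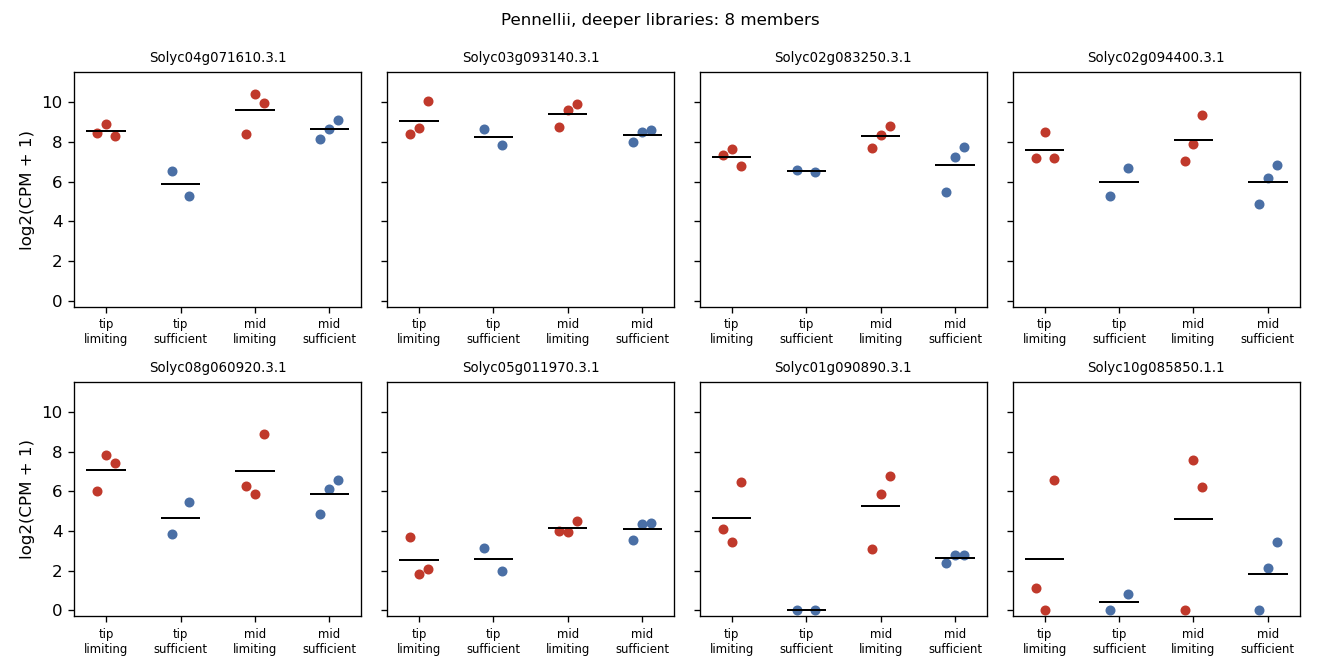
Points are single deeper Pennellii libraries, as log2(CPM + 1), for 8 of the genes, in the order tip limiting, tip sufficient, midsection (mid) limiting and midsection sufficient, with red for limiting and blue for sufficient phosphate and lines at the means of the log2 values. Solyc01g090890.3.1 and Solyc02g094400.3.1 show no overlap at either position, and Solyc05g011970.3.1 overlaps at both.

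Counting separation alone, 10 of the 75 tested members (13.3%) had all limiting tips above both sufficient tips, against a background of 8.7% of the 15485 genes, and 4 (5.33%) had all below, against 8.76%, with under 1 count behind 1 of these 4. In midsections 7 members (9.33%) had all limiting libraries above all sufficient ones, against 2.03%, and 4 (5.33%) had all below, against 8.01%. These counts moved with single libraries. The tip count was 19 without limiting tip replicate 4 (background 21.6%), 18 without sufficient tip replicate 1 (17.4%), 27 without sufficient tip replicate 3 (24.8%) and 15 without limiting tip replicate 2 (13.8%). The midsection count was 14 without limiting midsection replicate 1 (background 5.52%) and 11 without limiting midsection replicate 2 (8.65%). With the 3 shallow libraries added, 4 members were separated at each position, against 6.06% of genes in tips and 0.446% in midsections.

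Separation at both positions was found for 3 of the 75 tested members (4%), Solyc01g090890.3.1, Solyc02g094400.3.1 and Solyc07g045160.3.1. It was found for 37 of all the genes tested (0.239%). Solyc07g045160.3.1 had 31.9, 85.7 and 141 CPM in limiting Pennellii tips, against 27.9 and 24.9 in sufficient tips, and 147, 342 and 130 CPM in limiting midsections, against 129, 94.9 and 80.2 in sufficient midsections (log2 change averaged over positions 1.60 ± 0.84, edgeR adjusted p = 0.605). In M82 it averaged 25.2 ± 9.53 CPM in limiting tips, against 3.46 ± 1.90 in sufficient tips, and 82.7 ± 18.0 CPM in limiting midsections, against 29.0 ± 13.3 in sufficient midsections (SD, n = 4 each). The lowest limiting library lay close to the highest sufficient one at both Pennellii positions.

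Over all 89 genes, 25 had a Pennellii ratio of (mean CPM + 1) of 2 or more in tips, 25 in midsections and 11 at both, while 15, 14 and 4 had a ratio of 0.5 or less. Limiting means were the higher ones for 55 genes in tips and 43 in midsections, and the lower ones for 30 and 46. Among the 75 tested members, the share with a ratio of 2 or more was 29.3% in tips, against 30.4% of the 15485 genes, 30.7% in midsections, against 15.9%, and 14.7% at both, against 5.64%. A ratio of 0.5 or less was found for 18.7% in tips, against 23.4%, 16% in midsections, against 25.4%, and 5.33% at both, against 6.82%. The limiting mean was the higher one for 62.7% in tips, against 53.5% of genes, and for 50.7% in midsections, against 40%. Between the log2 ratios of M82 and of Pennellii, Spearman's rho across the 89 genes was 0.197 in tips and 0.172 in midsections. These rho values describe genes within shared libraries, many of them shallow in Pennellii.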

How the data were processed

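Per the labels, total RNA was made into strand-specific 3′ libraries by BrAD-seq and sequenced as single reads. The authors deposited estimated counts per gene model, partly fractional (6.17% of values), in 1 table per genotype. The submitters' processing notes name FastQC, Bowtie 1.2.2, limma and edgeR. What produced the fractions, the genome build and the annotation were not given in the sources used here. No ID matched the RefSeq table (assembly SLM_r2.1), so no gene name, sequence or coordinate is printed and the symbol lists chosen for phosphate and root markers could not be filled.

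CPM was computed from column totals. For tests, estimated counts were rounded, scaled by TMM and filtered by filterByExpr (minimum count 10, total 15) in edgeR 4.0.16, R 4.3.3, with robust quasi-likelihood F tests, Benjamini-Hochberg adjustment over all genes tested and a threshold of 0.05. The groups of a genotype shared 1 fit. Standard errors are the log2 change over the square root of F. Intervals and floors of 3 counts cover counting error only. The scripts were tested on simulated data.

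The members and lists were chosen with earlier results of these data known. Genes named by rule were the 8 with the largest smaller-of-both ratio, the 4 with the highest group mean, the 3 largest and 3 smallest among those called for position, those called in a Pennellii phosphate contrast, and the genes at the threshold. Others are marked where they appear, and the Pennellii values of the first groups and of genes separated at both positions were chosen after they were seen. Alternatives were RLE scaling, DESeq2 1.42.0, limma-voom (limma 3.58.1), other filters, depths and thresholds, a replicate block, and each library left out.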

Additional observations from a re-analysis of the deposited data

Results flagged for a closer look

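Among 80 groups of 4 M82 libraries (76 of the 19 named genes and 4 of the summed level of the 89), 8 held 1 library far from the others. The nominal rate of the rule is about 1 in 20 groups by chance, which was not checked on these data. Several of the 8 groups lie near 0, where a library's value rests on few counts and the nominal rate may not hold. In sufficient tips the far library was replicate 1 each time. Solyc04g015120.3.1 had 6.28 CPM there against 0.644 to 0.792 in the others, Solyc01g090890.3.1 had 1.35 against 0.586 to 0.711, Solyc10g011920.2.1 had 1.67 against 0 to 0.0293, and Solyc03g120260.3.1 had 0.224 against 0. In sufficient midsections, Solyc03g120260.3.1 had 0.33 CPM in replicate 2 against 0 in the others, Solyc05g054320.3.1 had 0 in the shallow replicate 3 against 0.11 to 0.118, and Solyc02g091590.3.1 had 4.38 in replicate 1 against 11.1 to 11.8. In limiting tips, Solyc08g060920.3.1 had 214 CPM in replicate 2 against 312 to 331.

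Some of the genes had every limiting Pennellii library below every sufficient one at one position. All limiting Pennellii tips lay below both sufficient tips for 4 (5.33% of the 75 tested members, against 8.76% of all genes), Solyc03g112790.3.1, Solyc03g116120.2.1, Solyc04g025880.3.1 and Solyc07g041735.1.1. Solyc03g112790.3.1 had under 1 estimated count in each of these tip groups (0.000297 in limiting and 0.166 in sufficient tips), and its log2 change there was 0. Solyc03g116120.2.1 had 16 counts in limiting tips and 7 in sufficient tips, in libraries of unequal depth. All limiting Pennellii midsections lay below all sufficient ones for 4 others (5.33%, against 8.01%), Solyc03g005530.1.1, Solyc05g052360.2.1, Solyc07g056480.3.1 and Solyc09g011490.3.1. Solyc07g056480.3.1 had 49.0, 36.4 and 51.7 CPM in limiting Pennellii midsections, against 394, 176 and 191 in sufficient ones. The difference between the genotypes was not tested.

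In a library not used for its depth, limiting Pennellii midsection replicate 3, the summed CPM of the 89 genes was 6328 (95% exact Poisson interval 5549 to 7161, counting error only, 244 counts). In the sufficient Pennellii tips not used, it was 4143 (3583 to 4783) in replicate 2 and 5185 (3516 to 7257) in replicate 4, whose interval overlaps that of the limiting library. The limiting library is a midsection and the others are tips, so position differs with phosphate here. Replicate 4 of the sufficient tips stood above limiting tip replicate 1, one of the libraries used (5129).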

How the results depend on the processing

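With a ratio of 3 in place of 2 the rule gave 44 genes. CPM on TMM-scaled libraries gave 73, all among the 89, and leaving out each M82 library gave 92 to 115. With a library left out the rule asks for separation of fewer libraries, which favours a larger count, so these counts do not measure stability. Between 81 (without sufficient midsection replicate 3) and 88 of the 89 were kept. The M82 position counts were within 1.5 times under all 23 alternatives (12 to 16 higher and 27 to 34 lower with a library left out, 13 and 28 with a replicate block), and the 6 named position calls held under all 22.

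In Pennellii, DESeq2 called 2 members higher in tips (1.61% of all genes), 4 averaged over positions (0.882%), and 1 higher and 2 lower in tips than in midsections (0.39% and 1.52%). limma-voom called 4 in midsections (0.207%), 0 averaged and 0 lower in tips than in midsections. No low-count filter gave 0 averaged and 0 for position, as did a replicate block (0 and 0). With libraries of at least 500000 counts, 1 was called higher in tips (0.0571% of all genes) and 0 averaged. There 13 members were separated in midsections (17.3%, against 11.3% of all genes). With all libraries but the identical pair, 0 were called lower in tips than in midsections. In that setting 4 were separated in tips (5.33%, against 6.06% of all genes) and 4 in midsections (5.33%, against 0.446%). With a library left out, calls were 0 to 1 in tips, 0 to 1 averaged and 0 to 1 for position, and separated members 10 to 27 in tips and 7 to 14 in midsections. A sufficient tip left out leaves a lone library, assumed to vary like the other groups. The cause was not tested. RLE scaling moved the all-gene median in Pennellii midsections to -0.03, against -0.15 with TMM.

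Deviations of same-numbered libraries correlated between -0.036 and 0.098 in M82 and between -0.021 and 0.218 in Pennellii. For libraries of different number the ranges were -0.070 to 0.065 and -0.124 to 0.096. The highest correlation in each genotype was thus of a same-numbered pair. The numbers were not taken to pair samples in the main fit, and the replicate block was run as an alternative. In the shallowest Pennellii library used, 3 counts are 21.8 CPM.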
